A study of Mus musculus with 46 samples.

Results

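A set of 10 genes that mark neutrophils and their granules was followed through 3 organs of young mice: S100a8, S100a9, Retnlg, Mmp8, Cd177, Ngp, Camp, Ltf, Elane and Mpo. They were taken by gene symbol, and all 10 were found among the 53465 genes of the count table. Elane and Mpo were treated as early granule genes and the other 8 as late granule genes.

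The organs were liver, kidney and cerebellum, taken on postnatal day 23 from mice of the C57BL/6 strain, and their mRNA was sequenced. P195A, a changed allele of Adar (which encodes the RNA-editing enzyme ADAR1), was present in each of the 16 animals. P195A lies in the domain with which ADAR1 binds Z-form nucleic acids, a domain held by the interferon-inducible p150 isoform. In the p150-negative animals (P195A/p150-) the other allele makes no p150, and in the p150-positive animals (P195A/p150+) it does. The P195A change is therefore shared by both groups and its own effect was not compared here; each library came from 1 organ of 1 animal, and sex is not among the labels used.

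Neutrophils fill their granules in sequence as they mature in the marrow. Elane (neutrophil elastase) and Mpo (myeloperoxidase, which makes hypochlorous acid) are transcribed at the promyelocyte stage for the primary granules. Ltf (the iron-binding lactoferrin), Camp (the precursor of the cathelicidin peptide), Ngp (neutrophilic granule protein) and Mmp8 (neutrophil collagenase) follow for the secondary and tertiary granules. Cd177 is a surface protein that is also stored in secondary granules, and Retnlg encodes a small secreted resistin-like protein of mature mouse neutrophils. S100a8 and S100a9 form calprotectin, the most abundant protein of the neutrophil cytosol, so they are neutrophil rather than granule products in the strict sense. A circulating neutrophil keeps much of its S100a8, S100a9 and Retnlg mRNA, while Elane and Mpo mRNA are largely lost by then.

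On GRCm38, S100a8 (ENSMUSG00000056054) lies on chromosome 3 from 90668978 to 90670035 on the plus strand, and its partner S100a9 (ENSMUSG00000056071) close by from 90692632 to 90695721 on the minus strand. Chromosome 9 holds 4 of the genes: Mmp8 (ENSMUSG00000005800, 7558456 to 7568485, plus), Camp (ENSMUSG00000038357, 109847379 to 109849617, minus), Ngp (ENSMUSG00000032484, 110419747 to 110423012, plus) and Ltf (ENSMUSG00000032496, 111019271 to 111042767, plus). Cd177 (ENSMUSG00000052212) lies on chromosome 7 from 24743983 to 24760311, minus strand, and Elane (ENSMUSG00000020125) on chromosome 10 from 79886247 to 79888215, plus strand. Mpo (ENSMUSG00000009350) lies on chromosome 11 from 87793581 to 87804413 and Retnlg (ENSMUSG00000022651) on chromosome 16 from 48872621 to 48874496, both on the plus strand. Counts are over the exons of each whole gene. Mpo alone shares exon bases with another annotated gene, the antisense Gm11505, which had 0 counts.

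The stretches upstream of 4 of the genes are shown, chosen among those with a match to letters read by myeloid transcription factors. Whether these letters bear on the levels measured here was not tested. S100a9, Mmp8 and Ltf are late genes and Elane is an early one. The sequences are from RefSeq on GRCm38.p6, read 5′ to 3′ on the strand of the gene and ending before its first transcribed base. Capitals mark matches to TTGCNNAA, a form of the site of C/EBP factors, and to GAGGAA, the core read by PU.1, on either strand. S100a9 is from chr3:90695722-90695971 (minus), Mmp8 from chr9:7558179-7558428 (plus), Ltf from chr9:111019042-111019270 (plus) and Elane from chr10:79886062-79886246 (plus).
S100a9: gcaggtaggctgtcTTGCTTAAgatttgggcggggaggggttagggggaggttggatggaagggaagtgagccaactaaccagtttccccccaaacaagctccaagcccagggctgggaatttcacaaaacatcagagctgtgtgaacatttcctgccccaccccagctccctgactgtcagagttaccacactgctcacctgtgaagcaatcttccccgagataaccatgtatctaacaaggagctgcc
Mmp8: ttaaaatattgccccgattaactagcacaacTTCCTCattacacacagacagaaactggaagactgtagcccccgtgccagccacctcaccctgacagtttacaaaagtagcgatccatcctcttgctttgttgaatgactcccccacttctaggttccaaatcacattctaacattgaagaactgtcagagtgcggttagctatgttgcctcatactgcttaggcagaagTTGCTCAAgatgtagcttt
Ltf: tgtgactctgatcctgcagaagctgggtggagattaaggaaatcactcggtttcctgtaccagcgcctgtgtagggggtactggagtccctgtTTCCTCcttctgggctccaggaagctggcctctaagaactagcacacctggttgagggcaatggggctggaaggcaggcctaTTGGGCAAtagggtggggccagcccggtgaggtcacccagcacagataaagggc
Elane: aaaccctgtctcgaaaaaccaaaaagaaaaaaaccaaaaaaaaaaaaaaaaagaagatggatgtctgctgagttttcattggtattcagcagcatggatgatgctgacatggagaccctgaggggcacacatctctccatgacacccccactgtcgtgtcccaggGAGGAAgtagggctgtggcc
In the window of 250 bases before to 50 after the RefSeq start, TTGCNNAA stood in 5 of the 10 members (S100a9, Mmp8, Ltf, Ngp, Retnlg), against 10.8% of 32851 mouse promoters. GAGGAA stood in 6 of 10 (S100a8, Mmp8, Cd177, Ltf, Elane, Mpo), against 28.3%. TATAAA stood in 4 of 10 (S100a8, S100a9, Cd177, Mmp8) against 13.6%, with the matches of S100a9 and Mmp8 on the start itself, and TTCNNNGAA, read by STAT factors, in 0 of 10 against 8.3%. The 2 early genes held GAGGAA and no TTGCNNAA in this window. Camp, which was also called higher in liver, held none of these motifs. All motifs were searched on both strands, no match to one overlapped a match to another in the 10 genes, and a match describes letters only.

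Of 46 libraries, 41 were used. In liver these were 7 of p150-negative and 7 of p150-positive animals, in kidney 5 of p150-negative and 7 of p150-positive animals, and in cerebellum 8 of p150-negative and 7 of p150-positive animals. The other 5 libraries (liver animal 2, kidney animals 2, 11 and 12, cerebellum animal 7) were left out because they carry the RNA of another organ. Genes of the labelled organ (4 per organ, such as Alb, Umod and Pcp2) stood there at 0.827% or less of the median of their label, and in every library used at 59.8% or more. The smallest library held 0.27 M counts (M, 1000000), the median 2.95 M and the largest 6.24 M, so 1 count stands for a large step in the shallow libraries. Levels are counts per 1000000 counts of the library (CPM), and a fold change is p150-negative over p150-positive from edgeR's quasi-likelihood test with its standard error. A gene was called when its p, adjusted by Benjamini-Hochberg over all genes tested in that organ, was under 0.05.

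In liver, the 7 late genes with enough counts to be tested were all higher in p150-negative animals, from Camp, which rose 1.72 ± 0.36 on the log2 scale, to Mmp8, which rose 4.47 ± 0.55. Among all 9843 genes tested in liver, 6.94% were called higher and 4.76% lower. The calprotectin pair carried most of the counts. Mmp8 and Retnlg had the 2 highest fold changes of the tested genes and Camp the lowest; differences between the genes were not tested. In bulk tissue, more neutrophils and more of this RNA per neutrophil cannot be told apart.

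S100a8 had 145 CPM in the lowest, 236 in the median and 684 in the highest of 7 p150-negative livers, against 5.94, 20.7 and 49.7 CPM in 7 p150-positive livers. S100a9 had 154, 233 and 554 CPM in p150-negative livers, against 7.73, 25.3 and 72.5 CPM in p150-positive livers. The groups did not overlap for either gene. S100a8 averaged 346 ± 221 CPM in p150-negative and 25.4 ± 16.7 CPM in p150-positive livers (SD, n = 7 each), a log2 fold change of 3.89 ± 0.51 (edgeR, adjusted p = 2.70e-05). S100a9 averaged 306 ± 164 CPM in p150-negative and 32.1 ± 21.8 CPM in p150-positive livers, a log2 fold change of 3.35 ± 0.46 (edgeR, adjusted p = 4.35e-05). The spread among p150-negative livers was wide: animals 1 and 16 had the highest summed level of the late genes, 1673 and 1411 CPM, and animal 9 the lowest, 429 CPM.

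The collagenase gene Mmp8 had 16.8, 35 and 113 CPM (lowest, median, highest) in p150-negative livers, against 0, 2.43 and 5.01 CPM in p150-positive livers. Its log2 fold change was 4.47 ± 0.55 (edgeR, adjusted p = 1.37e-05). Retnlg had 25.3, 38.3 and 93.3 CPM in p150-negative livers, against 0.697, 1.36 and 8.88 CPM in p150-positive livers, and rose by 4.36 ± 0.54 on the log2 scale (adjusted p = 1.71e-05). Neither gene overlapped between the groups. Cd177 was too rare for the filter on low counts, with 226 counts in all p150-negative and 12 in all p150-positive livers. It had 3.76, 6.6 and 41.6 CPM in p150-negative livers, against 0, 0 and 2.97 CPM in p150-positive livers, and again the groups did not overlap. With no filter, a setting added after seeing the data, Cd177 was called at a log2 fold change of 4.55 ± 0.68 (edgeR, adjusted p = 4.24e-06 over 23749 genes, of which 3.76% were called higher). Thus 5 of the 10 genes, 4 of them tested, were higher in every p150-negative than in any p150-positive liver, which held for 2.45% of the genes tested.

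Ngp, Ltf and Camp overlapped between the groups. Ngp had 26.3, 56.4 and 125 CPM in p150-negative livers, against 0.772, 8.52 and 33.8 CPM in p150-positive livers, and rose by 2.71 ± 0.51 (edgeR, adjusted p = 9.50e-04). Ltf had 11.1, 34.6 and 82.1 CPM in p150-negative livers, against 0.339, 5.34 and 15.4 CPM in p150-positive livers, and rose by 2.89 ± 0.52 (adjusted p = 6.30e-04). Camp, the least changed member, had 14.8, 24 and 30.6 CPM in p150-negative livers, against 2.97, 5.34 and 15.4 CPM in p150-positive livers. It rose by 1.72 ± 0.36 (edgeR, adjusted p = 0.00276), and every p150-negative liver lay above the p150-positive median. With all labelled libraries, liver animal 2 included, Camp was no longer called (1.49 ± 0.63, adjusted p = 0.173).

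The early genes were near the limit of detection in p150-positive livers. Elane had 0, 5.75 and 13.2 CPM in p150-negative livers, against 0, 0 and 1.29 CPM in p150-positive livers, or 119 against 9 counts. Mpo had 1.88, 9.12 and 14.8 CPM in p150-negative livers, against 0, 0.772 and 2.09 CPM in p150-positive livers, or 155 against 21 counts. The groups overlapped for both through p150-negative animal 16, the liver of 0.53 M counts, which had 1 count of the pair. For Mpo, p150-negative animal 11 also overlapped, at 2.06 CPM from 5 counts in a library of 2.43 M counts. With no filter, Elane rose by 3.99 ± 0.69 (adjusted p = 5.95e-05) and Mpo by 3.04 ± 0.57 (adjusted p = 1.78e-04) in edgeR.

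**Figure D1:**
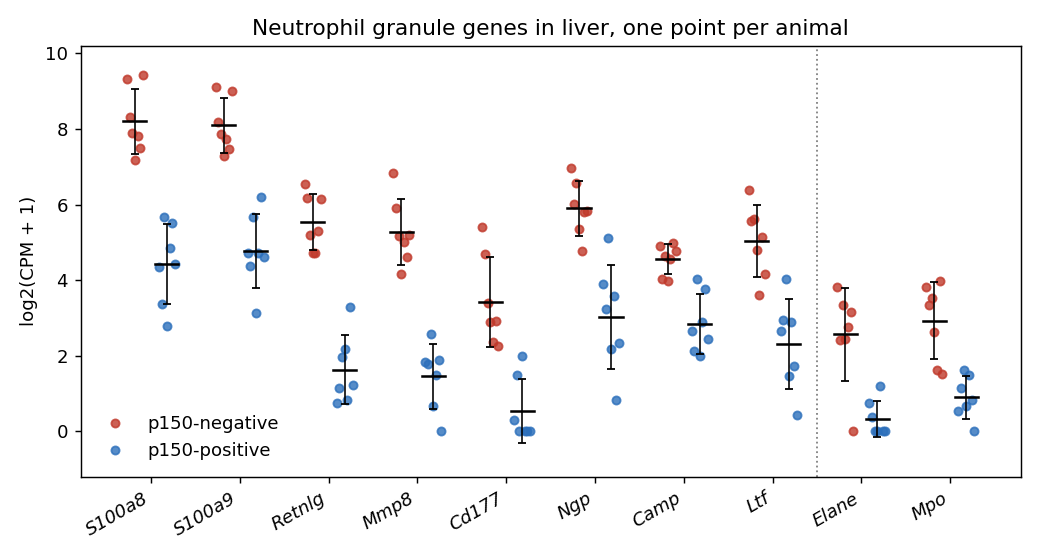
Level of each gene in each liver as log2(CPM + 1), with p150-negative animals in red on the left and p150-positive animals in blue on the right of each pair, black bars for the mean and whiskers for 1 SD (n = 7 each). The red points of S100a8, S100a9, Retnlg, Mmp8 and Cd177 all lie above the blue points, while Ngp, Camp, Ltf and the early genes right of the dotted line overlap.

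Divided by exon length, the order of levels in p150-negative livers was S100a9 (586 ± 314 CPM per kb), S100a8 (499 ± 318), Retnlg (86.4 ± 44.8), Ngp (53.8 ± 27.4), Camp (30.7 ± 8.13), Mmp8 (18.5 ± 13.5), Ltf (11 ± 6.92), Elane (6.52 ± 4.27), Cd177 (4.88 ± 5.01) and Mpo (2.37 ± 1.51; SD, n = 7). Neighbours in this order differed by less than the larger of their SDs, except S100a8 and Retnlg. In p150-positive livers the pair also led, S100a9 at 61.5 ± 41.8 and S100a8 at 36.7 ± 24.1 CPM per kb, followed there by Camp (9.56 ± 6.44) and Ngp (8.83 ± 9.1).

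The first part of the animal identifier in the labels (P094, AC, AA, AS), whose meaning is not given, divides the animals into 4 sets that hold both genotypes in liver. The mean summed level of the late genes was 20.3 times as high in p150-negative as in p150-positive livers among P094 animals (2 and 2), 6.05 times among AC animals (3 and 3), 3.76 times for AA (1 and 1) and 25.8 times for AS (1 and 1). All 10 genes had the higher mean in p150-negative livers in P094, AC and AA, and 9 in AS. With the identifier as a block, the count of called granule genes in liver was again 7, beside 823 of all 9843 genes called higher.

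Markers of other blood cells did not all move alike in liver. The 13 red cell genes, such as the haemoglobin genes, summed to 1527 to 5129 CPM in p150-negative and 1773 to 5249 CPM in p150-positive livers. Of 8 tested, 0 were called by edgeR and 1, Alas2, had an unadjusted p under 0.05. The part of blood in the granule gene counts was not tested. The 10 monocyte and macrophage genes summed to 1002 to 2588 CPM in p150-negative and 346 to 758 CPM in p150-positive livers, with none at 0, and 9 were called higher. The part of those cells in the granule gene counts was not tested. Liver animal 16 had the highest red cell sum of the p150-negative livers, 5129 CPM, and the second highest granule gene level. Without it, 9 of 9 tested granule genes were called higher, beside 655 of all 10066 genes tested.

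In kidney, levels were lower and fewer genes could be tested, but the calprotectin genes again did not overlap between genotypes. That separation rests on few counts in the shallowest p150-negative kidney, animal 3. Of 3 genes tested, S100a8 was called higher in p150-negative kidneys, beside 0.385% of 11957 genes higher and 0.309% lower. S100a9 and Ngp did not pass. The other 7 had too few counts for the filter.

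S100a8 had 69.7, 22.3, 49.4, 59.3 and 96.3 CPM in p150-negative kidneys (animals 1, 3, 8, 9 and 16), against 0.429, 3.28 and 16.2 CPM (lowest, median, highest) in 7 p150-positive kidneys. S100a9 had 59.4, 48.3, 60.6, 68.6 and 85.7 CPM in the same p150-negative kidneys, against 1.68, 5.16 and 44.7 CPM in p150-positive kidneys. The groups did not overlap for either gene, as for 0.828% of the genes tested. The lowest p150-negative values, of animal 3, came from 6 counts of S100a8 and 13 of S100a9 in a library of 0.27 M counts. S100a8 rose by 3.48 ± 0.64 on the log2 scale (edgeR, adjusted p = 0.0147). S100a9 had a log2 fold change of 2.63 ± 0.66 (edgeR, adjusted p = 0.0926). Ngp averaged 16 ± 12.3 CPM in p150-negative and 2.7 ± 4.38 CPM in p150-positive kidneys (SD, n = 5 and 7). Its log2 fold change was 2.45 ± 0.83 (edgeR, adjusted p = 0.297), and its highest value, 37.1 CPM in animal 3, came from 10 counts.

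The genes under the filter followed in part. Mmp8 had 12.6, 0, 7.35, 15.6 and 13.9 CPM in p150-negative kidneys (animals 1, 3, 8, 9 and 16), against at most 0.469 CPM in p150-positive kidneys, or 134 counts against 4. Retnlg had 8.57, 0, 11.2, 6.24 and 18 CPM in p150-negative kidneys, against at most 1.32 CPM in p150-positive kidneys. Only animal 3, the library of 0.27 M counts, overlapped the p150-positive kidneys for these. Cd177 had 22 counts in 3 of 5 p150-negative kidneys and 0 counts in all 7 p150-positive kidneys. Pooled over animals, it was at least 13.3-fold higher against a floor of 3 counts over the p150-positive group, while 2 p150-negative kidneys had 0. With no filter, 4 genes were called in edgeR: Mmp8 (log2 fold change 5.35 ± 0.83, adjusted p = 7.07e-04), S100a8 (adjusted p = 0.00108), Retnlg (3.78 ± 0.78, 0.0136) and S100a9 (2.66 ± 0.56, 0.0173). In that fit 0.344% of 26470 genes were called higher. Cd177 (5.20 ± 1.22, edgeR adjusted p = 0.0532), Ngp (2.45 ± 0.78, 0.214), Ltf (2.62 ± 0.73, 0.128) and Camp (0.51 ± 1.00, 0.907) did not pass.

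The kidney count depended on single libraries. One p150-positive kidney, animal 5, stood apart with 81.6 CPM of the late genes, against 7.18 to 25.7 CPM in the other 6, and it also had the highest red cell sum of the kidneys, 10411 CPM. Without this library, S100a8 (4.04 ± 0.56, adjusted p = 0.00223), S100a9 (3.73 ± 0.39, 2.46e-04) and Ngp (3.53 ± 0.63, 0.0122) were all called. Without p150-negative animal 3, 5 of 6 tested genes were called, namely S100a8, S100a9, Mmp8, Ltf and Retnlg. Calls over all kidney genes then numbered 211, against 83 in the main fit, and ran from 34 to 211 over the single libraries left out. Without p150-negative animal 16, or p150-positive animal 4 or 6, S100a8 missed the threshold (adjusted p = 0.0554, 0.0514 and 0.0512), and with all labelled kidneys 0 genes were called (S100a8 3.23 ± 0.68, adjusted p = 0.6). Red cell genes ran against the granule genes in kidney, with sums of 981 to 3255 CPM in p150-negative and 3781 to 10411 CPM in p150-positive kidneys. Of 9 tested, 2 were called lower: the haemoglobin genes Hba-a1 and Hbb-bs, named after their values were seen, whose reads can be shared with near-identical copies.

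Within sets of animal identifiers the mean late level was 4.22 times as high in p150-negative kidneys for P094 (2 and 3), 8.41 times for AC (2 and 2) and 25.3 times for AS (1 and 1), while AA held no p150-negative kidney. With the identifier as a block, S100a8 was not called (3.22 ± 0.68, edgeR adjusted p = 0.0852).

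In cerebellum, 0 of 5 tested genes were called, and the p150-negative animals were more unlike each other than the p150-positive ones. S100a8 and S100a9 had an unadjusted p under 0.05, a level at which the share of all genes was not counted. DESeq2 and edgeR without a filter also called 0 members. Among all 13146 genes tested, 0.723% were called higher, and without a filter 0.343%.

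S100a8 had 6.02, 43.2 and 130 CPM (lowest, median, highest) in 8 p150-negative cerebella, against 7.09, 16.5 and 28 CPM in 7 p150-positive cerebella. S100a9 had 7.5, 31.5 and 120 CPM in p150-negative cerebella, against 7.43, 15.5 and 23.1 CPM in p150-positive cerebella. The groups overlapped: 6 of 8 p150-negative cerebella lay above the p150-positive median for S100a8 and 5 of 8 for S100a9. The log2 fold changes were 1.64 ± 0.53 for S100a8 (edgeR, adjusted p = 0.226, and 0.0626 to 0.585 over the alternative settings) and 1.49 ± 0.53 for S100a9 (adjusted p = 0.298). Ngp averaged 23 ± 21.7 CPM in p150-negative and 13.4 ± 6.65 CPM in p150-positive cerebella, Ltf 15 ± 12.7 and 7.37 ± 5.7, and Camp 6.43 ± 7.23 and 2.99 ± 2.15 CPM (SD, n = 8 and 7). Their log2 fold changes were 0.76 ± 0.64, 0.99 ± 0.71 and 1.10 ± 0.76, with adjusted p between 0.715 and 0.776.

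Animals 16 and 8 had the highest summed late level of the p150-negative cerebella, 374.8 and 305 CPM, and animal 1 the lowest, 34.2 CPM; the p150-positive cerebella ran from 26 to 92.9 CPM. Animals 16 and 8 also had liver genes (Alb, Apoa1, Serpina1c, Cps1) at 146 and 50.9 CPM, and animal 9, at 144 CPM of the late genes, had 138 CPM of them. Animal 3, above animal 9 in the late genes at 190 CPM, had the lowest liver gene sum of the group, 1.98 CPM, and the highest of the remaining 4 was 22.2 CPM. The part of this in the granule gene level was not tested. Red cell genes summed to 690 to 2320 CPM in p150-negative and 2322 to 4730 CPM in p150-positive cerebella, the reverse of the granule genes; of 8 tested, 3 were called lower (Hba-a1, Hbb-bs and Alas2), beside 0.274% of all genes. The liver of animal 1 was the highest of all livers for the late genes while its cerebellum was the lowest of the p150-negative group. Within identifiers, the mean late level was 1.49 times as high in p150-negative cerebella for P094, 2.61 times for AC, 0.609 times for AA and 14.4 times for AS, so AA (1 and 1) ran the other way.

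**Figure D2:**
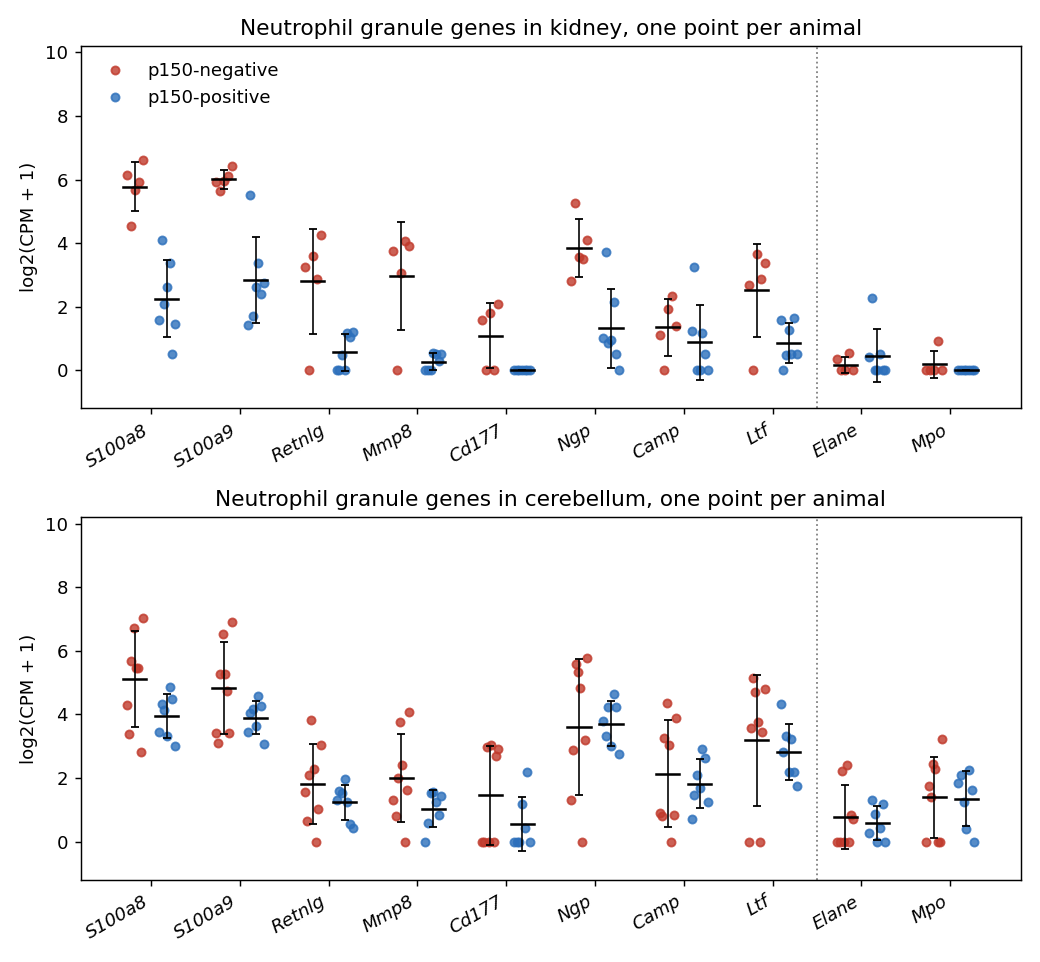
Level of each gene in each kidney (top) and cerebellum (bottom) as log2(CPM + 1), p150-negative in red on the left and p150-positive in blue on the right of each pair, with mean (bar) and SD (whisker; n = 5 and 7, and 8 and 7). In kidney the red points of S100a8 and S100a9 lie above the blue ones; in cerebellum every gene overlaps.

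All 10 genes had their highest group mean in p150-negative livers. For S100a8, S100a9, Mmp8 and Retnlg that group did not overlap with the next in order, the p150-negative kidneys. It exceeded their mean by 5.83, 4.74, 4.55 and 5.82 times. The share of all genes that separate these 2 groups of different organs was not counted. All later neighbours in the order of the 6 groups overlapped. The p150-positive kidneys were lowest for 9 of the 10 genes, and p150-negative kidneys for Elane. The difference of the genotype effects between organs was tested in its own model. It was called for 0 of 10 genes between liver and kidney, 0 of 10 between liver and cerebellum and 0 of 8 between kidney and cerebellum, beside 1.50%, 2.67% and 0.114% of all genes tested. An unadjusted p under 0.05 was found for 1 (Elane), 8 and 3 (S100a8, Mmp8, Retnlg) members. The share of all genes at that level was not counted, so these numbers have no background beside them. With the animal as a block, since organs of 1 animal share it, 0 members were called in any pair, beside 0.918%, 1.39% and 0.0602% of all genes.

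The differences between liver and cerebellum with the smallest p were, on the log2 scale, 2.90 ± 0.90 for Retnlg (edgeR, adjusted p = 0.0812; with the animal as block 3.27 ± 1.03, 0.160) and 2.24 ± 0.75 for S100a8 (adjusted p = 0.109; with the block 2.48 ± 0.66, 0.0767), each larger in liver. Single libraries moved these calls: Retnlg was called without p150-negative cerebellum animal 8 (3.50 ± 0.87, adjusted p = 0.0202) or without p150-positive liver animal 13 (3.68 ± 0.88, 0.0162), and S100a8 without p150-negative cerebellum animal 16 (2.61 ± 0.73, 0.0466). Between liver and kidney the differences were small beside their errors for S100a8 (0.28 ± 0.83) and Ngp (0.20 ± 1.15). So the genotype effects on Retnlg and S100a8 had lower estimates in cerebellum than in liver, but neither difference passed after adjustment.

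**Figure D3:**
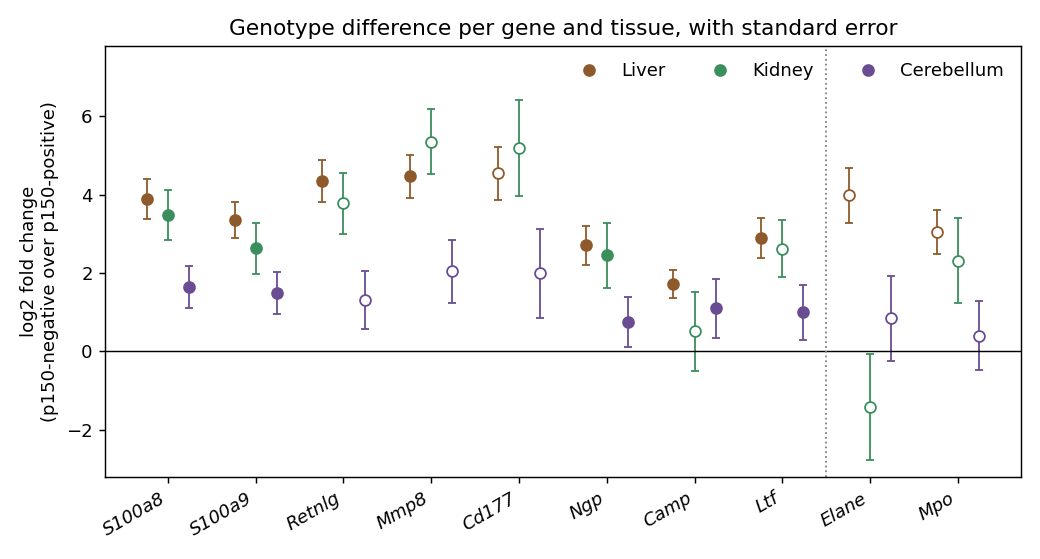
Log2 fold change of each gene, p150-negative over p150-positive, in liver (brown), kidney (green) and cerebellum (purple), with standard error; filled circles passed the filter on low counts and open circles come from the fit without it. The liver values lie between 1.72 and 4.55, each gene's cerebellum value is below its own liver value, and only Elane in kidney, with 2 and 7 counts, lies below 0.

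Early and late granule genes were set against each other within each library. In p150-negative livers Elane and Mpo together held 274 counts and the 8 late genes 12880, an early share of 2.08% (exact 95% interval 1.85 to 2.34%). In p150-positive livers they held 30 and 1796 counts, a share of 1.64% (1.11 to 2.34%). Intervals cover counting error only. The share per library was 0.133 to 4% with a median of 1.55% in p150-negative livers, against 0 to 3.75% with a median of 1.57% in p150-positive livers. The early share thus overlapped between the genotypes over most of its range, while both early and late levels were higher in p150-negative livers. On the CPM scale, the early pair averaged 14.5 ± 8.81 CPM in p150-negative and 1.32 ± 1.03 CPM in p150-positive livers, and the late genes 889 ± 475 and 86.7 ± 52.4 CPM (SD, n = 7 each).

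The p150-negative livers differed among themselves in this share. Animal 14 had 86 early counts and a share of 4% (3.21 to 4.91%). Animal 16 had 1 early count beside 751 late counts, 0.133% (0.00337 to 0.739%), although its late level was the second highest. Those 2 intervals do not overlap.

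In p150-negative kidneys the early genes were almost absent beside the late ones, with 4 counts against 2030, a share of 0.197% (0.0536 to 0.503%). Each animal's kidney had a lower share than its own liver: 0.173% against 1.55% in animal 1, 0 against 1.49% in animal 3, 0 against 2.7% in animal 8, 0.779% against 2.19% in animal 9 and 0 against 0.133% in animal 16. The kidney of animal 3 had 29 late counts, so its 0 allows up to 11.9%, while that of animal 8 allows up to 0.824% and that of animal 16 up to 0.617%. Kidney and liver intervals overlapped in animals 3, 9 and 16 and did not in animals 1 and 8. In p150-positive kidneys the early share was 2.16% (0.873 to 4.4%), from 7 early and 317 late counts, of which animal 5 alone gave 5 and 106. Per library the shares overlapped, at 0 to 0.779% in p150-negative and 0 to 4.5% in p150-positive kidneys, with a median of 0 in both. Of the p150-positive animals, 6, 7, 10 and 13 had a lower share in kidney than in liver. Animal 4 had a higher one and animal 15 had 0 in both organs. Kidney and liver intervals overlapped in each of them. The genotype effect on Elane was 5.16 ± 1.59 larger on the log2 scale in liver than in kidney, which did not pass (edgeR, adjusted p = 0.116; with the animal as block 4.66 ± 2.07, 0.525) and rests on 2 and 7 counts in kidney.

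In cerebellum the early share was 2.33% (1.93 to 2.79%) in p150-negative animals, from 115 early counts, against 4.35% (3.43 to 5.43%) in p150-positive animals, from 74 early counts. Summed over animals the intervals do not overlap, but per library the shares do, at 0 to 6.13% with a median of 2.07% in p150-negative cerebella, against 0 to 8.12% with a median of 4.27% in p150-positive cerebella. Mpo averaged 2.59 ± 2.92 CPM in p150-negative and 1.91 ± 1.43 CPM in p150-positive cerebella, and Elane 1.17 ± 1.78 and 0.593 ± 0.613 CPM (SD, n = 8 and 7). Without a filter neither passed the test (log2 fold change 0.40 ± 0.88 for Mpo and 0.84 ± 1.08 for Elane, edgeR adjusted p = 0.882 and 0.757).

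**Figure D4:**
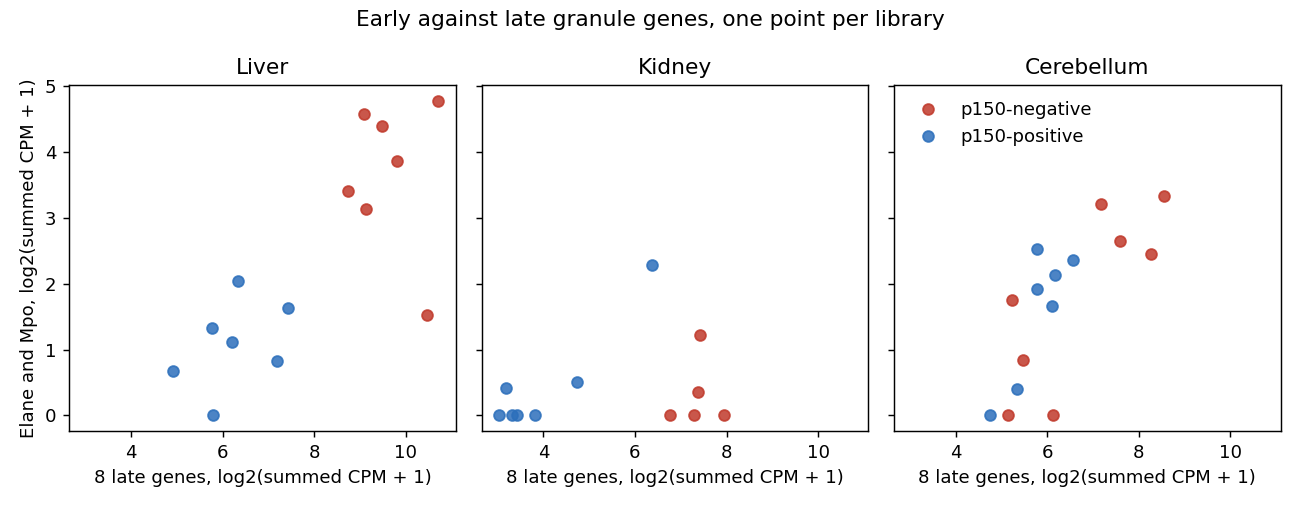
Summed level of Elane and Mpo against the summed level of the 8 late genes, each as log2(CPM + 1), one point per library, p150-negative in red and p150-positive in blue. The p150-negative livers lie high on both axes apart from animal 16, the p150-negative kidneys lie right and low, and the cerebella of both genotypes mix.

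The make-up of the 10 genes is given from counts summed over animals, with no test. S100a8 and S100a9 made up 35.8% and 33.1% of the counts of the 10 genes in p150-negative livers, and 29% and 36.4% in p150-positive livers. Ngp had 1.54 counts for each Mmp8 count in p150-negative livers, against 5.02 in p150-positive livers. The same ratio was 0.925 in p150-negative and 8.75 in p150-positive kidneys, and 4.16 in p150-negative and 13.1 in p150-positive cerebella. Ltf ran alike, with 0.932 counts for each Mmp8 count in p150-negative and 2.54 in p150-positive livers. The summed ratio of Ngp to Mmp8 was thus lower in p150-negative animals in all 3 organs, in p150-positive kidneys over 4 Mmp8 counts. Per library with any Mmp8 count the ratios overlapped, at 0.842 to 2.68 in 7 p150-negative livers against 0.286 to 6.75 in 6 p150-positive livers, and 1 to 15.7 in 7 p150-negative cerebella against 3.4 to 22 in 6 p150-positive cerebella.

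**Figure D5:**
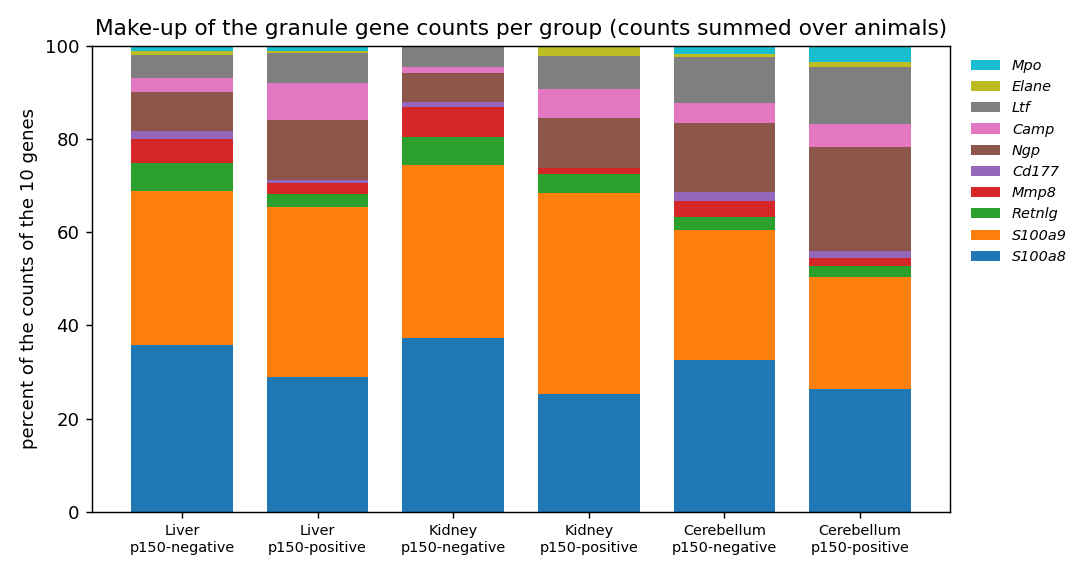
Percent of the counts of the 10 genes taken by each gene in each group, counts summed over animals, p150-negative left of p150-positive in each organ. S100a8 and S100a9 take most of each bar; Mmp8 (red) and Retnlg (green) are wider in p150-negative livers and Ngp (brown) and Camp (pink) in p150-positive livers.

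Of 6 other primary granule genes, 3 could be tested in liver and 2 were called higher. Prtn3, the serine protease next of kin to Elane, rose by 2.93 ± 0.39, with 62.9 ± 28.7 CPM in p150-negative and 8.35 ± 5.45 CPM in p150-positive livers (edgeR, adjusted p = 3.33e-05). Ctsc, the protease that activates these enzymes and is made in many cells, rose by 0.92 ± 0.23 (adjusted p = 0.00907). The median of the 3 was 0.92, beside -0.04 over all genes tested.

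Of 14 other secondary and tertiary granule genes, 10 were tested in liver and 10 were called higher, with a median log2 fold change of 2.25. Lcn2, the siderophore-binding lipocalin, rose by 5.17 ± 0.55 (adjusted p = 3.26e-06), with 3022 ± 1328 CPM in p150-negative and 85.5 ± 78.4 CPM in p150-positive livers. Hp (haptoglobin) rose by 1.95 ± 0.26, Anxa1 (annexin A1) by 2.39 ± 0.26 and Lyz2 (lysozyme) by 2.05 ± 0.26, with adjusted p of 3.23e-05, 4.12e-06 and 1.71e-05 in edgeR. Lcn2 and Hp are also made by hepatocytes in the acute phase and Lyz2 by macrophages, so these are not neutrophil genes alone. In kidney 0 of 8 tested were called by edgeR. There 5 had an unadjusted p under 0.05, among them Olfm4 and Cyba, named after their values were seen, with negative fold changes (-1.57 ± 0.57 and -0.41 ± 0.19), and Lcn2 had 2.36 ± 0.70 (adjusted p = 0.180). In cerebellum 1 of 11 was, Lcn2, at 124 ± 91.9 CPM in p150-negative and 5.06 ± 2.29 CPM in p150-positive animals (4.56 ± 0.52, adjusted p = 1.65e-04).

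Of 10 factors of neutrophil production, 5 were tested in liver. Csf3r, the receptor for granulocyte colony-stimulating factor, rose by 2.63 ± 0.57 (edgeR, adjusted p = 0.00328). Spi1, the gene of PU.1, rose by 1.77 ± 0.30 (adjusted p = 3.26e-04) and Cebpd, a C/EBP factor also induced in hepatocytes, by 1.90 ± 0.27 (adjusted p = 6.10e-05). Cebpa was lower, at a log2 fold change of -1.19 ± 0.27 (adjusted p = 0.00451), with 23.1 ± 10.5 CPM in p150-negative and 53.8 ± 13.6 CPM in p150-positive livers; it starts granulopoiesis in marrow and is highly transcribed in hepatocytes. In kidney and cerebellum 0 of 4 tested were called by edgeR, with 1 and 3 at an unadjusted p under 0.05. Of the other primary granule genes, 0 of 2 were called in either organ, with 0 and 1 at that level.

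Of 22 genes of mature neutrophils, mostly surface receptors, 10 were tested in liver. Of these, 9 were called higher, beside 6.94% of all genes tested, with a median of 2.10. Monocyte and macrophage genes were also higher in these livers, and the part of those cells in this list was not tested. Il1r2, the decoy receptor of interleukin 1, rose by 5.66 ± 0.76 (edgeR, adjusted p = 3.19e-05), with 15.6 ± 12 CPM in p150-negative and 0.313 ± 0.555 CPM in p150-positive livers. The inhibitory receptor gene Lilr4b rose by 3.71 ± 0.49 and the Fc receptor gene Fcgr3 by 1.79 ± 0.25. Of 14 genes of the entry of leukocytes, neutrophils among them, into tissue, 4 were tested and 4 called higher. These were the chemokine gene Cxcl1 (3.92 ± 0.71, edgeR adjusted p = 6.91e-04), the adhesion genes Vcam1 (2.02 ± 0.20) and Icam1 (1.70 ± 0.32), and Il1a (1.44 ± 0.27). Csf3 and Il17a, also listed, had 0 counts in the livers of both genotypes. Kidney had 0 of 4 and 0 of 2 called in these lists by edgeR, with 1 each at an unadjusted p under 0.05. Cerebellum had 0 of 4, with 2 at that level, and 1 of 3: Ackr1, the chemokine-binding receptor of venules, named after its values were seen, at 116 ± 49.4 CPM in p150-negative and 19.7 ± 8.21 CPM in p150-positive animals (2.52 ± 0.31, adjusted p = 2.11e-04).

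The 8 genes whose profile over the 14 livers lay closest to the mean of the late granule genes included Ifitm6, Mcemp1, Cd300lf, Serpina3n, Cerkl, Cd14 and Cd300e. Their root mean square distance in log2 CPM, each gene centred on its mean, was 0.51 to 0.651 among 7446 candidates. The granule genes themselves lay 0.542 (Mmp8) to 1.133 (Elane) from that mean. The late ones are part of it and the candidates are not, so these ranges are not like for like. Ifitm6 averaged 26 ± 18 CPM in p150-negative and 0.954 ± 0.758 CPM in p150-positive livers (SD, n = 7 each). The acute phase gene Serpina3n, a hepatocyte product, averaged 2406 ± 1030 and 374 ± 94.9 CPM, so the nearest profiles were not of leukocyte genes alone. These distances hold the difference between the genotypes as well as that among livers of 1 genotype; the parts were not separated.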

How the data were processed

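The authors deposited raw gene counts, with all 46 columns matched to a sample by title. The submitters' processing notes name FastQC 0.11.3, STAR 2.4.2a, SAMtools 1.2, Picard 1.134, HTSeq 0.4.1 and GRCm38 (mm10); annotation release and strand setting are not given in the sources used here. Per the labels' protocols, RNA was DNase-treated and made into Nextera XT libraries. Of 53471 entries, 6 identifiers stood more than once with identical counts and were used once; entries without a symbol held 0.267% of counts. Coordinates and exon lengths are from GENCODE M21 (99.8% of identifiers found).

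Each organ was fitted with edgeR 4.0.16 (R 4.3.3): TMM scaling, filterByExpr by genotype (minimum count 10, minimum total 15), quasi-likelihood test, Benjamini-Hochberg adjustment over all genes, threshold 0.05. Differences between organs used 1 model over 2 organs. Counts at an unadjusted p under 0.05 are given for members and lists only, with no share of all genes. DESeq2 1.42.0, RLE scaling, other filters, other library sets, an identifier block and leaving out each library were tried, and a fit of liver with no filter for Elane, Mpo and Cd177 was added after seeing the data. The procedure was tested on simulated counts, with an outcome not reported here. Only genes above a set level in p150-positive libraries were changed in it, so the rarer members were not covered.

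Libraries numbered 4, 5, 20, 31 and 34 in the labels were left out by the rule for the members. Organs pair by animal, since the titles give each organ its animal; correlations of deviations from the group means were -0.017 to 0.247 between liver and kidney (11 animals), -0.006 to 0.257 between liver and cerebellum (13) and -0.19 to 0.216 between kidney and cerebellum (11).

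The members and the 16 gene lists (141 genes, 140 in the table) were chosen with earlier results of these data known. Text names all members, up to 4 tested genes of each list with the smallest p in liver, and the 8 nearest profiles to the late mean among genes of at least 10 CPM in p150-negative livers; the same for Elane and Mpo was not made, as they missed the filter. A few genes that the rule names are not reported here. Replicates are separate animals. Intervals of shares are exact (Clopper-Pearson, 95%), and a floor is 3 counts.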

Additional observations from a re-analysis of the deposited data

Results flagged for a closer look

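Of 64 sets of values (a gene or a sum in 1 group of 4 to 10 libraries), 11 held 1 library far from the rest. The rule flags about 1 in 20 sets of independent, normally distributed values. These sets are low counts that share libraries, so the rate expected by chance here is not known. Kidney animal 5, p150-positive, gave 5 of them: S100a9 at 44.7 CPM against at most 9.41 CPM in the other 6, Ngp at 12.3 against at most 3.42, Camp at 8.47 against at most 1.35, Elane at 3.85 against at most 0.428, and the summed late genes at 81.6 against at most 25.7 CPM.

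Liver animal 7, p150-positive, was high for the secondary granule genes Ngp (33.8 CPM, against at most 13.9 in the other 6) and Ltf (15.4 against at most 6.7 CPM), and liver animal 13, p150-positive, for Retnlg (8.88 against at most 3.57 CPM). Cerebellum animal 4, p150-positive, had 19 CPM of Ltf against at most 8.93, and cerebellum animal 13, p150-positive, 3.53 CPM of Cd177 against at most 1.28. Mpo in kidney animal 9, p150-negative, at 0.891 CPM, rests on 2 counts beside 0 in the other 4.

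Among the 5 libraries outside the comparisons, 1 had a summed level of the 10 genes above the p150-positive libraries of its labelled organ. The library labelled kidney of animal 2, p150-negative, which holds the RNA of another organ, had 150 CPM of the 10 genes, against 7.18 to 85.5 CPM in the p150-positive kidneys used. Its Cd177 level, 25.5 CPM from 92 counts, was above every kidney used, where the highest was 3.28 CPM in p150-negative animals and 0 in p150-positive ones. For single genes, the library labelled kidney of animal 11, p150-negative, had 3.42 CPM of Cd177, and that of animal 12, p150-positive, had 12.8 CPM of Ltf, where the kidneys used had at most 11.6 CPM in p150-negative and 2.14 CPM in p150-positive animals. All 3 hold the RNA of another organ, so kidneys are no like for like measure for them.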

How the results depend on the processing

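Depth limited which of the 10 genes could be tested: 7 in liver, 3 in kidney and 5 in cerebellum passed the filter on low counts. The liver count of 7 called genes was 6 to 10 under the other settings and 7 to 9 when 1 library was left out; the cerebellum count stayed 0. The kidney count of 1 became 5 with DESeq2, 4 with no filter, 5 without libraries under 1 M counts, 0 with all labelled libraries and 0 with the identifier as a block, and ran from 0 to 5 when 1 library was left out. Under the first 3 settings more members were tested, and otherwise the cause was not tested. Kidney calls over all genes changed under these settings too, with the numbers given below. Between liver and cerebellum 0 to 1 genes were called when 1 library was left out; the other organ pairs kept 0 in every setting run.

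With the animal as a replicate block, since organs of an animal are paired, no member's call changed; the liver against kidney difference turned to -0.27 for S100a9, -0.27 for Ngp and -0.19 for Camp. Over all genes the block gave 119 calls between liver and kidney (0.918%, against 1.50% without it), 196 between liver and cerebellum (against 376) and 9 between kidney and cerebellum (against 17). Without libraries under 1 M counts S100a8 turned to -0.21 between liver and kidney. When 1 library was left out, that organ difference spanned 0 for S100a8 (-0.18 to 0.55), S100a9 (-0.39 to 0.97), Ngp (-0.75 to 0.79), Camp (-0.28 to 1.32), Ltf (-0.18 to 0.72) and Cd177 (-1.10 to 0.40), and between kidney and cerebellum for Camp (-0.83 to 0.88).

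All genes called numbered 1152 in liver (DESeq2 1740, all labelled libraries 740), 83 in kidney (DESeq2 355, no filter 141, all labelled 1, without libraries under 1 M counts 211, identifier block 32, 34 to 211 without 1 library) and 131 in cerebellum (DESeq2 330). Liver against kidney had 71 with all labelled libraries; kidney against cerebellum had 31 with no filter, 47 without libraries under 1 M counts and 8 to 33 when 1 library was left out.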

Other observations

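Other blood and tissue cells were read from their own lists in the same livers. Of 10 monocyte and macrophage genes 10 were tested and 9 were called higher in p150-negative livers, with a median log2 fold change of 1.32. The scavenger receptor gene Marco rose by 3.61 ± 0.27 (edgeR, adjusted p = 7.04e-08), with 478 ± 171 CPM in p150-negative and 39.8 ± 13.9 CPM in p150-positive livers (SD, n = 7 each). Ly6c2, which marks inflammatory monocytes, rose by 3.63 ± 0.42 and their chemokine receptor gene Ccr2 by 2.70 ± 0.37, while Cd5l, a product of resident macrophages, rose by 1.84 ± 0.25. The platelet chemokine genes Ppbp (2.74 ± 0.48, adjusted p = 4.99e-04) and Pf4 (2.20 ± 0.39, adjusted p = 5.99e-04) were called higher, and the platelet integrin gene Itga2b was not (0.42 ± 0.44, adjusted p = 0.638). Of 8 eosinophil and mast cell genes 1 was tested, the eosinophil ribonuclease gene Ear2, and it rose by 1.95 ± 0.46 (adjusted p = 0.00653).

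Lymphocyte and progenitor genes gave no calls in liver, with 0 of 2 and 0 of 5 called by edgeR, and 0 and 1 (Cd34) at an unadjusted p under 0.05. Cd79b, of B cells, had 3.33 ± 2.74 CPM in p150-negative and 5.55 ± 2.34 CPM in p150-positive livers. Mki67, which marks dividing cells, had 17 ± 7.58 CPM in p150-negative and 12.5 ± 5.76 CPM in p150-positive livers. Cd34 had a log2 fold change of 1.16 ± 0.38 (adjusted p = 0.0538). In kidney 0 of 5 monocyte and macrophage, 0 of 2 platelet, 0 of 2 lymphocyte and 0 of 6 progenitor genes were called, with 1, 1, 0 and 1 at that level. In cerebellum 0 of 4, 0 of 2, 0 of 1 and 0 of 7 were called, with 2, 0, 0 and 1.

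In red cell genes the organs differed from the granule genes. Alas2, the haem synthesis enzyme gene of red cell precursors, was lower in p150-negative cerebella (log2 fold change -1.73 ± 0.26, edgeR adjusted p = 9.17e-04), with 63.8 ± 23.7 CPM in p150-negative and 207 ± 103 CPM in p150-positive cerebella (SD, n = 8 and 7). In kidney Alas2 had 130 ± 98.3 CPM in p150-negative and 482 ± 134 CPM in p150-positive animals (-1.93 ± 0.52, adjusted p = 0.129; SD, n = 5 and 7), and in liver 103 ± 22 CPM in p150-negative and 166 ± 66 CPM in p150-positive animals (-0.63 ± 0.28, adjusted p = 0.179; SD, n = 7 each).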
